A study of Capra hircus with 6 samples.

Results

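Circular RNAs (circRNAs) with exactly 1 listed exon were described in ovarian follicles of goats. Over the 6 deposited tables, 788 of 13950 distinct circRNAs qualified, or 5.65%. A circRNA was counted once for each chromosome, start, end and strand. It qualified when its list of parts held exactly 1 exon in every library that listed it, when it had a single host gene identifier found on 1 chromosome only, and when no listed exon or intron exceeded 1000000 bases. Of the 2032 circRNAs with such a host, the 788 made up 38.8%. A further 555 had 2 or more listed exons, 607 had listed introns only, and 82 changed their number of listed exons between libraries and were set aside.

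The study sequenced pre-ovulatory follicles of Boer goats and Macheng black goats, with 3 libraries per breed. Each library was treated as 1 animal. All 6 libraries came from animals given the same hormones. These were 1000 IU PMSG (a gonadotropin that stimulates follicle growth) and 500 IU hCG (a gonadotropin that triggers ovulation). The breeds were thus compared under stimulation only, and no untreated animal was included. Total RNA was depleted of ribosomal RNA, and the labels name no digestion of linear RNA with RNase R. The labels do not say whether a library came from 1 follicle or several, or how old the animals were. In bulk tissue, fewer cells of a type and less RNA per cell cannot be told apart.

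A circRNA forms when a splice donor is joined to an acceptor upstream of it, a back-splice, which leaves a closed molecule without a cap or a poly(A) tail. A single-exon circRNA in the strict sense is one exon whose own end is joined to its own start. Such exons are known to be long compared with most internal exons, and pairing between the flanking introns can bring the ends together. Because every circRNA has a single back-splice junction, reads on that junction can be compared between circRNAs without a correction for length.

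The name single-exon did not hold for most of these circRNAs. Across all 28870 entries of the 6 files, no listed exon or intron was shorter than 150 bases. Among the 661 circRNAs with 1 listed exon and at least 1 listed intron, 633 (95.8%) also held a piece of sequence that was listed neither as exon nor as intron. Over all 788 there were 1590 such pieces, and 1398 of them (87.9%) were under 150 bases, with a median of 109 bases. The plot of piece lengths and exon lengths shows the pieces ending near 150 bases where the listed exons begin. What the pieces are is not given in the files, and they are called unlisted pieces here. The members are therefore named by their rule, as circRNAs with 1 listed exon, and those that coincide with their exon are called whole-exon circRNAs.

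**Figure D1:**
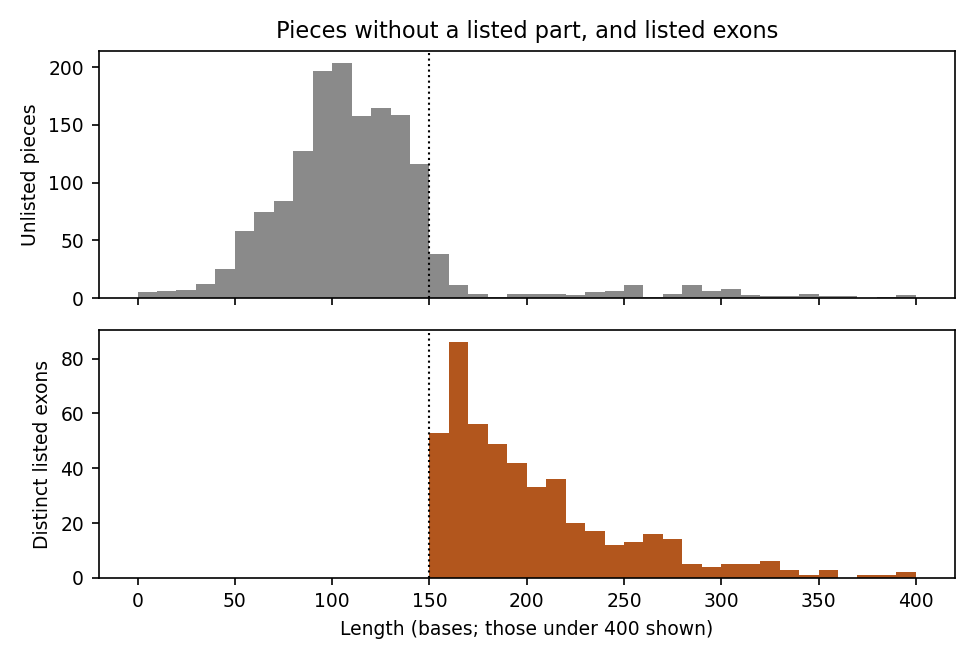
Number of unlisted pieces (upper panel) and of distinct listed exons (lower panel) by length in bases, for lengths under 400. The dotted line is at 150 bases. Of 1590 unlisted pieces 1398 lie to its left, and no listed exon does.

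The 788 circRNAs fell into 4 layouts. An exon with 1 or more introns was the most frequent, with 661 circRNAs (83.9%). Whole-exon circRNAs, whose ends are the 2 ends of the listed exon, numbered 49 (6.22%). A listed exon beside an unlisted stretch and no listed intron was found in 45 (5.71%), and 33 (4.19%) lay within their exon and covered only part of it. So 82 of the 788 (10.4%) stayed within the bounds of 1 exon.

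Listed exons were mostly short, and their median was larger in the 3 layouts without introns. The exon had a median of 197 bases over the 788 circRNAs, with quartiles at 169 and 274 bases and a range from 150 to 7912 bases, the longest in a circRNA with introns. Over the 597 distinct exons, 286 (47.9%) were under 200 bases and 63 (10.6%) were over 1000 bases. In the layout with introns the median exon was 188 bases. It was 322 bases in whole-exon circRNAs, whose quartiles were 269 and 849 bases and whose range was 160 to 1832 bases. It was 323 bases beside an unlisted stretch and 2157 bases where the circRNA lay within its exon. In those last 33, the circRNA itself had a median length of 352 bases.

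**Figure D2:**
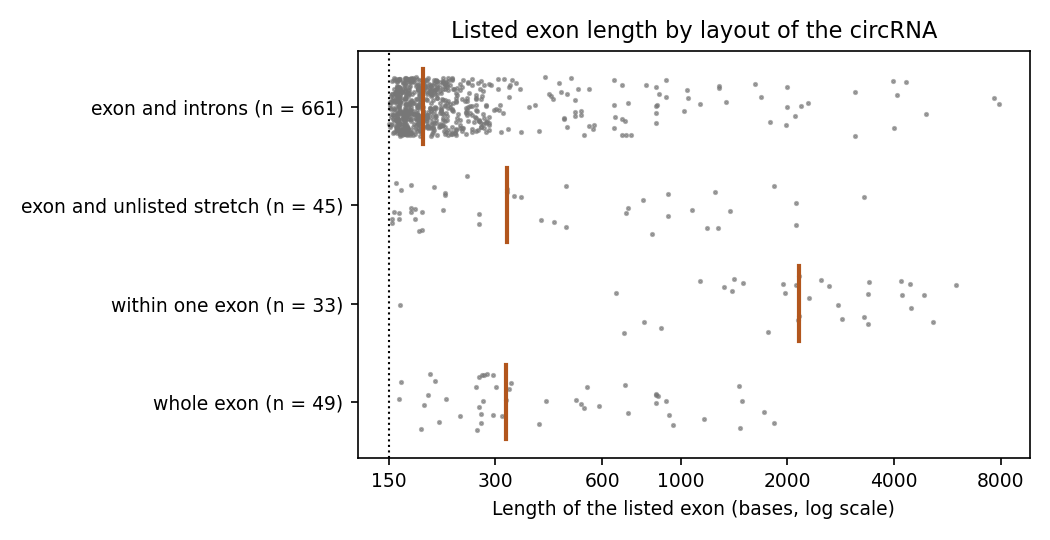
Length of the listed exon in bases (log scale) for each of the 788 circRNAs, by layout, with 1 point per circRNA and a bar at the median. The dotted line marks 150 bases, the shortest listed part; medians run from 188 bases with introns to 2157 bases within an exon.

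Within each library, the exon was longer where no intron was listed. The layouts set part of this difference: the group without introns includes the 33 circRNAs within their exon, which is longer than the circRNA by definition. The comparison was not repeated without them. The median exon of circRNAs without a listed intron ranged from 416 to 910 bases over the 6 libraries, against 186 to 192.5 bases with one. The difference was 366 ± 193 bases (SD, n = 6 libraries) and had the same sign in 6 of 6 libraries. An exact sign-flip permutation test gave a two-sided p of 0.031, the smallest that 6 libraries allow, and 0.0438 after Benjamini-Hochberg adjustment over 7 such tests.

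Introns made up most of the genomic span. The 661 circRNAs with introns held a median of 2 listed introns, and the most was 11. In 251 of them there was 1 intron, in 192 there were 2 and in 218 there were 3 or more. The listed introns added up to a median of 5205 bases, against 438 bases outside them. In 184 circRNAs the parts were 1 listed exon, 1 intron and 1 unlisted piece under 150 bases, with a median of 315.5 bases outside the intron. A listed intron lies between the ends of the circRNA in the genome. The files do not show whether it remained in the molecule.

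An end of the circRNA fell inside a listed intron in only 51 of the 788 (6.47%), and both ends did so in 3. The 5′ end of the circRNA alone was at the boundary of the listed exon in 255 and the 3′ end alone in 238. In 177 circRNAs both ends lay beyond the listed exon. The genomic span had a median of 4284.5 bases, with quartiles at 1693 and 10633 bases, and the longest was 98638 bases. The median span was 11169 bases for circRNAs with 2 or more listed exons and 5194 bases for those with introns only.

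Whole-exon circRNAs were few but were found in every library. Between 14 and 24 were listed per library, with 18.7 ± 2.52 in Boer libraries against 18.3 ± 5.13 in Macheng black libraries (SD, n = 3). They held 4.37 ± 0.201% of the back-splice reads of circRNAs with 1 listed exon in Boer and 4.15 ± 1.08% in Macheng black. The 49 came from 47 host genes, and 6 were listed in all 6 libraries. Positions are counted from 1, with 1 added to each start in the deposited files, on a genome build that the sources do not name. Levels are in CPM, back-splice reads per 1000000 listed back-splice reads after scaling, where 1 read was worth 15.5 to 38.1 CPM.

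CRB1 encodes a transmembrane protein of apical cell polarity. Its whole-exon circRNA had the most reads of the 49. The exon of 910 bases lies on chromosome 16 from 73964669 to 73965578, and the host gene identifier is 102171360. It had 77, 23 and 39 reads in Boer 1, 2 and 3, and 18, 20 and 7 reads in Macheng black 1, 2 and 3. Boer averaged 963 ± 206 CPM against 402 ± 122 CPM in Macheng black (SD, n = 3), and every Boer library was above every Macheng black library. The log2 fold change of 1.25 ± 0.42 (SE) did not pass, with an edgeR adjusted p of 0.605.

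SIPA1L2, which encodes a GTPase-activating protein for Rap, had the opposite order of the breeds. Its whole exon of 275 bases (chromosome 28, 3499248 to 3499522) had 14, 7 and 14 reads in Boer 1 to 3 and 23, 26 and 13 reads in Macheng black 1 to 3. The levels were 261 ± 58.7 CPM and 568 ± 73.5 CPM without overlap between the breeds. Its log2 fold change was -1.12 ± 0.46 (SE), with an edgeR adjusted p of 0.88.

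SLC8A1 encodes a sodium-calcium exchanger of the cell membrane. Its large exon is known as a source of a circRNA in other mammals. Here the whole exon of 1832 bases (chromosome 11, 22517513 to 22519344) had 34, 8 and 15 reads in Boer and 13, 18 and 7 reads in Macheng black. A circRNA ending 3 bases further, at 22519347, had more reads, with 54, 45 and 55 in Boer and 36, 45 and 20 in Macheng black. The pair held 95 and 255 reads over the 6 libraries, and the breeds overlapped in both. The circRNA of 255 reads is not counted as whole-exon only because of the 3 bases. Over all 788, 23 had another circRNA with both ends within 20 bases, so small shifts of an end split some reads between entries.

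The other whole exons listed in all 6 libraries overlapped between the breeds. ANKIB1, which encodes a ubiquitin ligase of the RBR type, had a whole exon of 279 bases (chromosome 4, 7488988 to 7489266) with 28, 5 and 23 reads in Boer and 11, 10 and 15 in Macheng black. ERCC6, which encodes a protein of transcription-coupled DNA repair, had one of 712 bases (chromosome 28, 41158004 to 41158715) with 26, 6 and 8 reads against 25, 11 and 10. LOC102169849, on an unplaced scaffold, had one of 587 bases with 12, 2 and 7 reads against 4, 3 and 2.

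**Figure D3:**
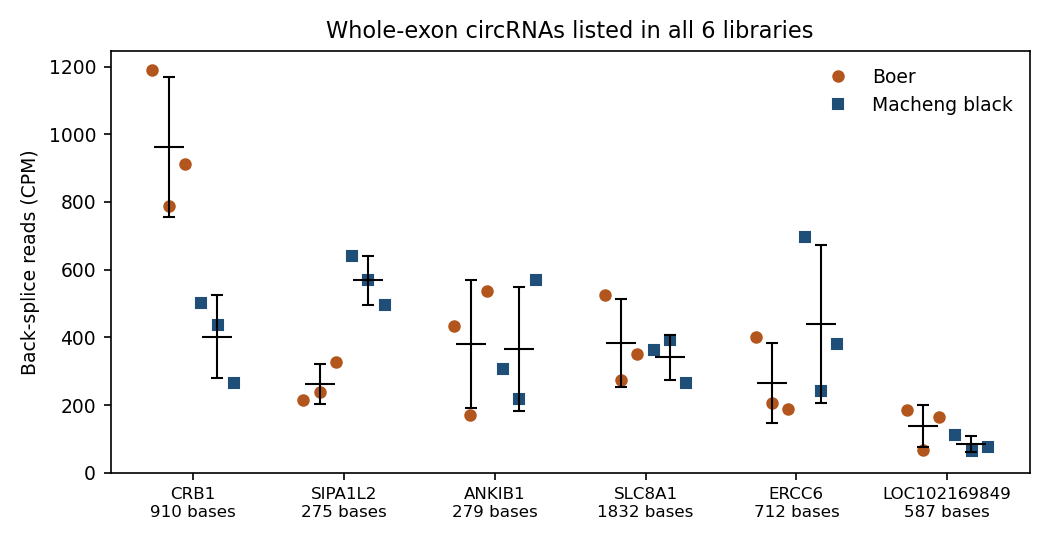
Back-splice level in CPM of the 6 whole-exon circRNAs listed in every library, with 1 point per library, a bar at the mean of each breed and error bars of 1 SD (n = 3). The breeds do not overlap for CRB1 (Boer higher) and SIPA1L2 (Macheng black higher) and overlap for the other 4.

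The 788 circRNAs came from 455 host genes, and a symbol was found for 435. With 274 hosts giving 1 member and 19 hosts giving 5 or more, several hosts gave sets of circRNAs on the same exon. In all, 137 exons were listed in 2 or more members, and 328 members shared their exon with another. Those circRNAs share sequence and are not independent of each other.

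ARHGAP10, which encodes a GTPase-activating protein, carried the most used exon. An exon of 160 bases on the minus strand of chromosome 17 (9988192 to 9988351) was listed in 8 circRNAs that together had 2614 reads. In 6 of the 8 the 3′ end of the circRNA was the end of that exon. Over all 8 the spans ran from 1633 to 98638 bases. The ARHGAP10 members, 9 of 23 circRNAs of the gene, held 2632 of its 2925 reads (90.0%). The ninth was a whole exon of 160 bases further along the gene with 18 reads.

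RAD51C, which encodes a protein of homologous recombination, also gave all its members on a shared exon. The 7 listed 1 exon of 167 bases (chromosome 19, 9109541 to 9109707) and held 316 of the 328 reads of the gene (96.3%). The 5′ end of the circRNA was at the exon boundary in 3 of the 7 and the 3′ end in 1. KAT2B, which encodes a histone acetyltransferase, had an exon of 182 bases (chromosome 1, 154763344 to 154763525) in 5 members with 588 reads, and 3 of them ended at its 3′ boundary.

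HMCN1, which encodes the extracellular matrix protein hemicentin, had the largest number of members but few reads. Its 13 members out of 25 circRNAs listed 9 different exons of 159 to 264 bases and held 165 of 223 reads (74.0%). CEP112, which encodes a centrosomal protein, had 8 members of 19 circRNAs with 319 of 755 reads (42.3%). ERCC6 and DCAF6 had 7 members each. All 129 reads of ERCC6 were in its members, 1 of which was the whole exon above, and DCAF6 had 106 of 115 reads.

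Reads were concentrated in a small number of circRNAs. The members held 19687 back-splice reads, 7.79% of the 252857 reads in the tables and 45.7% of the 43122 reads of circRNAs with a usable host. The median member had 4 reads over the 6 libraries, with quartiles at 2 and 12. The 3 highest members held 30.0% of the reads and the 10 highest held 42.0%. Of the 788, 434 (55.1%) were listed in 1 library and held 6.13% of the reads, and 83 (10.5%) were listed in all 6 and held 74.3%. No entry had under 2 reads, so the absence of a circRNA from a library means 0 or 1 read or a failure to find it.

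The circRNA with the highest level was from LOC106501751, an uncharacterised locus. It spans chromosome 29 from 48241251 to 48265156, with an exon of 323 bases at its 3′ end and an unlisted stretch of 23583 bases. It had 230, 67 and 116 reads in Boer 1 to 3, and 93, 1310 and 529 reads in Macheng black 1 to 3. Macheng black 2 and 3, at 28638 and 20131 CPM, stood far above the other 4 libraries, and Macheng black 1 at 2595 CPM was within the Boer range of 2292 to 3555 CPM.

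The ARHGAP10 circRNA of chromosome 17 from 9988192 to 10015046 came next, with the exon of 160 bases, 4 introns and 4 unlisted pieces. It had 954, 264 and 411 reads in Boer and 109, 281 and 96 in Macheng black. Its levels were 11133 ± 3144 CPM and 4279 ± 1643 CPM, with every Boer library above every Macheng black library.

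RANBP1 encodes a binding protein of the Ran GTPase of nuclear transport. Its circRNA (chromosome 17, 71723963 to 71726917) listed an exon of 158 bases and 1 intron that reached beyond an end of the circRNA. It had 222, 180 and 358 reads in Boer and 287, 255 and 150 in Macheng black, with overlap between the breeds. Back-splice reads were 90.6% of all reads counted for it, against a median of 2.35% in the layout with introns.

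ASB7, KAT2B, NHLRC3 and PDS5B were also among the 10 highest. ASB7, which encodes an adaptor with ankyrin repeats and a SOCS box, had an exon of 265 bases and an unlisted piece of 124 bases, with 186, 59 and 97 reads in Boer and 62, 124 and 44 in Macheng black. The leading KAT2B circRNA (154761954 to 154763525) listed the exon of 182 bases and 1 intron of 1297 bases, beside an unlisted piece of 93 bases. It had 158, 66 and 47 reads against 75, 77 and 41. NHLRC3 had an exon of 159 bases with 65, 26 and 54 reads against 43, 71 and 22. PDS5B, which encodes a regulator of cohesin, had an exon of 440 bases with 102, 31 and 43 reads against 28, 50 and 20. For each of these 4 genes the breeds overlapped in CPM. The SLC8A1 circRNA of 255 reads, one from identifier 106503954 on an unplaced scaffold and one from LOC102170282 completed the 10 highest.

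Among the circRNAs listed in all 6 libraries, the listed exons ran from 153 to 2112 bases. The longest was of SRSF1, which encodes a splicing factor, with 2112 bases (chromosome 19, circRNA from 8225070 to 8228313). The 5′ end of this circRNA lay inside the exon, so it covered only part of the exon, beside an unlisted stretch of 1693 bases. It had 8, 4 and 9 reads in Boer against 8, 3 and 3 in Macheng black. After the SRSF1 exon came the exons of SLC8A1, CRB1 and ERCC6 described above. The shortest was of MED17, which encodes a subunit of the Mediator complex, with 153 bases and 11, 2 and 3 reads against 9, 2 and 4. It was followed by exons of 155 bases in CEP112 and in GSPT1, which encodes a translation release factor, with 2 circRNAs each.

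Compared with circRNAs of 2 or more listed exons, those with 1 had more reads on average. The mean per circRNA in a library ranged from 8.61 to 13.4 reads for 1 listed exon and from 5.29 to 8.54 reads for 2 or more. The log2 ratio was 0.69 ± 0.16 (SD, n = 6 libraries), or 1.62-fold, and was positive in 6 of 6 libraries. The exact sign-flip permutation test gave p = 0.031 (0.0438 after Benjamini-Hochberg adjustment over 7 tests). With the median in place of the mean the log2 ratio was -0.069, so the order held for the mean and not for the median. Against circRNAs of introns only the log2 ratio was 0.13 ± 0.22 and positive in 4 of 6 libraries, with an exact permutation p of 0.25.

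Back-splice reads were also a larger share of the reads counted for a circRNA. In each library the median share was between 2.16% and 3.70% for 1 listed exon and between 0.685% and 1.26% for 2 or more. The difference was 1.86 ± 0.389 percentage points (SD, n = 6) and positive in 6 of 6 libraries, with an exact permutation p of 0.031 (adjusted 0.0438). Spans differed in the same comparison, with medians of 4284.5 and 11169 bases, and their part in the result was not tested. Among the layouts the median share was 10.8% for whole exons, 9.09% beside an unlisted stretch, 2.35% with introns and 1.77% within an exon.

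The listed exon was 5.03 ± 2.10 bases longer than the exons of circRNAs with 2 or more (SD, n = 6), with medians of 192 to 201 bases against 188.25 to 193.5 bases per library. The exact permutation p was 0.031 (adjusted 0.0438), and the sign was the same in 6 of 6 libraries. With circRNAs of at least 5 reads only, the difference was 0.632 bases and did not pass (exact permutation p = 0.719). An intron was listed in 85.2 ± 2.41% of circRNAs with 1 listed exon and in 99.1 ± 0.323% of those with 2 or more, a difference that the definition nearly fixes, since 2 exons enclose an intron.

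**Figure D4:**
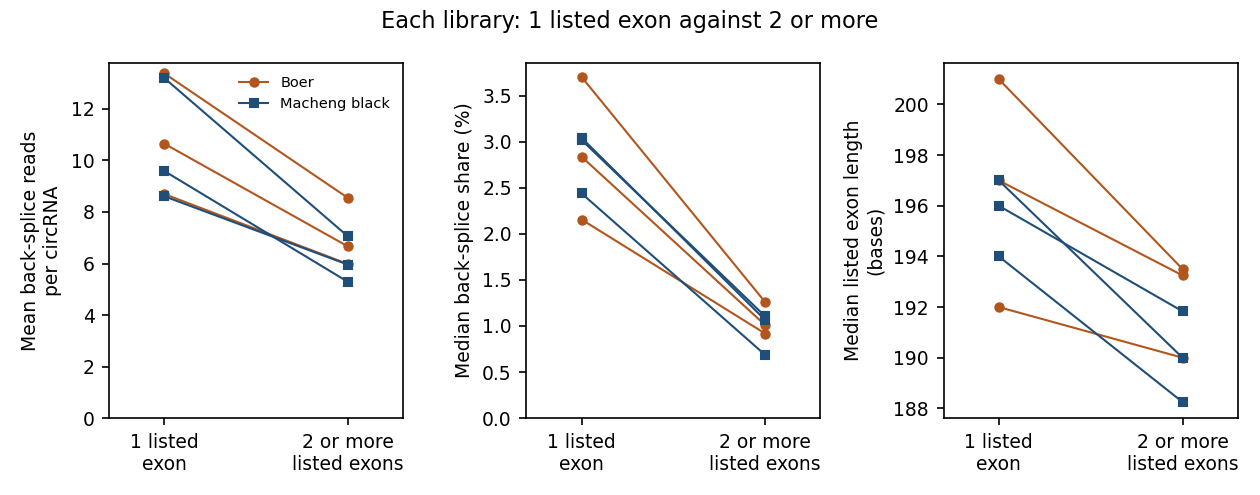
Mean back-splice reads per circRNA, median back-splice share (percent) and median exon length (bases) in each of the 6 libraries, for circRNAs with 1 listed exon and with 2 or more. Each line joins the values of 1 library, and all 6 lines fall in each panel; the length axis does not start at 0.

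Whether circRNAs with an intron had more or fewer reads than those without depended on 1 circRNA. The means per library were 9.59 ± 2.03 and 17.1 ± 10.8 reads, with a log2 ratio of -0.66 ± 0.85 that was positive in 2 of 6 libraries (exact permutation p = 0.125). Without the LOC106501751 circRNA the log2 ratio was 0.25, with circRNAs holding an intron higher and an exact permutation p of 0.031. That alternative was chosen after seeing the data.

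Of 4 measures of the make-up of these circRNAs, none passed a test between the breeds. The differences in exon length and in listed introns depended on whether circRNAs or reads were counted. They held 45.1 ± 1.20% of host-assigned reads in Boer against 46.5 ± 3.99% in Macheng black (SD, n = 3; exact permutation p = 0.6). They were 40.2 ± 1.04% and 39.3 ± 0.987% of host-assigned circRNAs (exact permutation p = 0.5). The median exon was 197 ± 4.51 and 196 ± 1.53 bases (exact permutation p = 0.9), and 85.7 ± 2.40% and 84.8 ± 2.85% had a listed intron (exact permutation p = 0.7). Weighted by back-splice reads, the difference in median exon length, Boer minus Macheng black, was -36.0 bases. With the same weighting the difference in listed introns was 15.99 percentage points with Boer higher, and the exact permutation p was 0.1. The LOC106501751 circRNA, which has no listed intron, held 1310 of the 4474 member reads of Macheng black 2 and 529 of the 1918 of Macheng black 3. The 4 unweighted p values were 0.9 after Benjamini-Hochberg adjustment, and 3 libraries against 3 cannot give a p below 0.1. Without Macheng black 2 the difference in read share, Boer minus Macheng black, turned from -1.43 to 0.252 percentage points.

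No single circRNA with 1 listed exon passed the test between breeds. In the edgeR quasi-likelihood test of 3712 circRNAs, 13 passed an adjusted p of 0.05, or 0.350% of those tested, and 0 of the 247 members tested did. The smallest adjusted p of a member was 0.0652. At an unadjusted p under 0.05 there were 22 members (8.91%), against 5.23% of all circRNAs tested. Of these, 17 were higher in Boer and 5 in Macheng black. DESeq2 called 2 of the 247, against 0.216% of all tested. Of 16 whole-exon circRNAs tested, 5 had an unadjusted p under 0.05: CRB1, AGPAT4 and DISC1 with Boer higher, and SIPA1L2 and AKAP2 with Macheng black higher. AGPAT4, DISC1 and AKAP2 had reads in 1 breed only. They met the filter of 2 reads in 3 libraries through that breed alone, so the filter itself favoured a small p for them. The log2 fold change was positive in 124 of the 247, with a median of 0.01 against 0.11 over all tested. The breeds did not overlap in CPM for 35 members (14.2%), 26 of them higher in Boer, against 11.7% of all tested. The 35 include 9 members listed in all 3 Boer libraries only and 1 listed in all 3 Macheng black libraries only. Those met the filter through 1 breed alone, so their lack of overlap was fixed in advance, and the counts by direction are in part set by the filter. Libraries of 1 breed varied by a biological coefficient of variation of 0.602, and 541 members had too few reads to be tested.

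The LOC106501751 circRNA differed in mean, with 2854 ± 643 CPM for Boer against 17121 ± 13280 CPM for Macheng black, a log2 fold change of -2.58 ± 0.64 (SE). It did not pass in edgeR (adjusted p = 0.0657), passed in DESeq2 (adjusted p = 0.00217), and passed in 4 of 11 alternatives in all. Leaving out Macheng black 1 gave an edgeR adjusted p of 0.00054. Over the 11 alternatives the adjusted p ranged from 0.000378 to 0.999.

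On the Boer side the smallest p values were those of 2 ARHGAP10 circRNAs on the shared exon, then of SLC8A1, CLPTM1 and CRB1. The ARHGAP10 circRNA ending at 10040261 had 108, 23 and 43 reads in Boer and 10, 17 and 10 in Macheng black. Its log2 fold change was 1.76 ± 0.43 (SE) with an edgeR adjusted p of 0.0652, and it passed in 2 of 11 alternatives, among them without Boer 3 (edgeR adjusted p = 0.0223). The one ending at 10008564 had 49, 17 and 40 reads against 4, 15 and 8, with an edgeR adjusted p of 0.242. The ARHGAP10 circRNA with the most reads had 1.38 ± 0.51 and an edgeR adjusted p of 0.721, and DESeq2 called it (adjusted p = 0.0421). The 3 share the exon and its 3′ end and are not independent.

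An SLC8A1 circRNA far from the large exon (chromosome 11, 22207612 to 22240861, with an exon of 276 bases) had 50, 27 and 36 reads in Boer and 13, 18 and 4 in Macheng black, without overlap in CPM. Its log2 fold change was 1.43 ± 0.44 (SE), with an edgeR adjusted p of 0.358. CLPTM1, which encodes a transmembrane protein, had a circRNA on an unplaced scaffold with 15, 13 and 22 reads in Boer and 0, 0 and 6 in Macheng black. The edgeR adjusted p was 0.471, and without Macheng black 3 it was 0.0104.

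On the Macheng black side LOC106501751 was followed by CNOT6, AKAP2, SIPA1L2 and RAD51C. CNOT6, which encodes a deadenylase of the CCR4-NOT complex, had a circRNA with an exon of 187 bases (chromosome 7, 228249 to 230440) and 8, 0 and 9 reads in Boer against 15, 25 and 13 in Macheng black. Its log2 fold change was -2.00 ± 0.62 (SE), with an edgeR adjusted p of 0.357. The leading RAD51C circRNA (9109541 to 9126425) had 67, 21 and 10 reads against 35, 97 and 19, with overlap between the breeds and an edgeR adjusted p of 0.929.

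**Figure D5:**
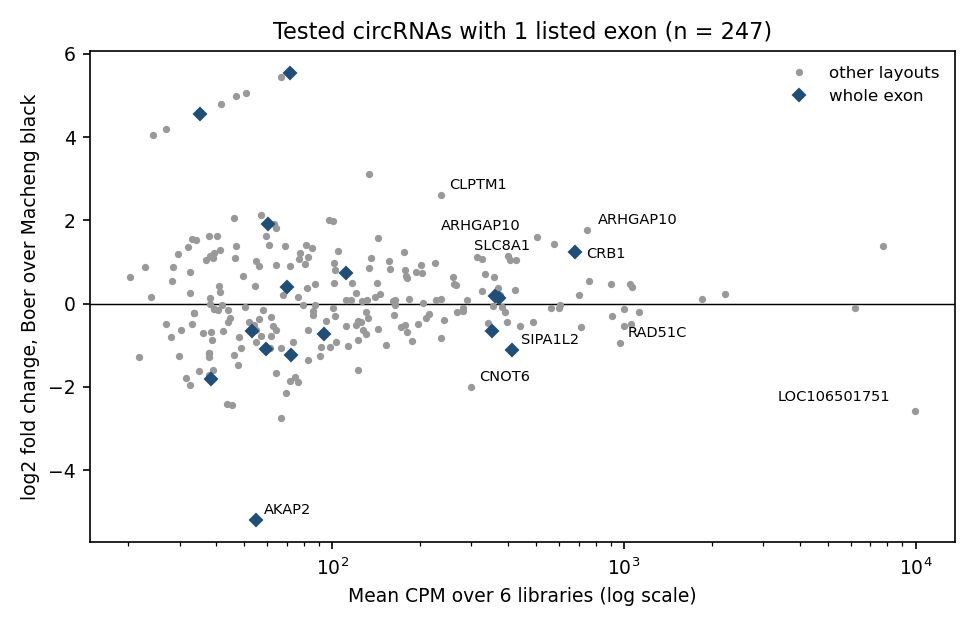
Fold change between breeds (log2, Boer over Macheng black) against mean level in CPM (log scale) for the 247 circRNAs with 1 listed exon that were tested, with whole-exon circRNAs as diamonds and the smallest p values in each direction named. None passed an edgeR adjusted p of 0.05; points beyond 4 in either direction are circRNAs with no reads in 1 breed, whose fitted fold depends on the prior count.

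A small number were listed in every library of 1 breed and in none of the other. There were 9 members (1.14%) in all 3 Boer libraries only, against 0.459% of all 13950 circRNAs, and 1 (0.127%) in all 3 Macheng black libraries only, against 0.251%. The Boer-only members came from AGPAT4, MMRN1, CASC4, TMEM87B, ABCB10, DSCC1, DISC1, CRB1 and HMCN1. AGPAT4, which encodes an acyltransferase of lysophosphatidic acid, had a whole exon of 264 bases with 5, 9 and 2 reads, and DISC1 a whole exon of 189 bases with 4, 3 and 2 reads. AKAP2, which encodes an anchoring protein of protein kinase A, had a whole exon of 696 bases with 3, 6 and 3 reads in Macheng black only. These counts lie close to the limit of 2 reads below which nothing is listed, and none of the 10 passed in edgeR. These 10 were chosen by this pattern of listing. The Boer libraries held 24884 to 74796 back-splice reads and the Macheng black libraries 23480 to 49141, and the part of depth was not tested.

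The members of each host gene were also summed and tested. Of 508 sums of a host gene and a class of circRNA, 3 passed in edgeR, or 0.591%, and 2 of these were among the 212 sums of circRNAs with 1 listed exon. At an unadjusted p under 0.05 there were 17 of the 212, and 7.28% of all 508. LOC106501751, with 2 members, was at 2834 ± 494 CPM for Boer against 17620 ± 13954 CPM for Macheng black, a log2 fold change of -2.63 ± 0.49 (SE; edgeR adjusted p = 2.45e-05). The sum was above all Boer libraries in 2 of 3 Macheng black libraries, while Macheng black 1, at 2450 CPM, was beside the lowest Boer library at 2454 CPM. The call was lost in 5 of 11 alternatives. Without Macheng black 3 the edgeR adjusted p was 0.551, without Boer 2 it was 0.0557, with at least 5 reads in 3 libraries it was 0.0903, with a replicate block it was 0.451, and DESeq2 gave 0.304. The sum held 2350 reads, of which 2345 were of the single circRNA that did not pass above.

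CLPTM1 has 1 member, so its sum is the circRNA that had an adjusted p of 0.471 in edgeR among the 3712, tested here among 508. It was at 400 ± 156 CPM for Boer against 77.5 ± 134 CPM for Macheng black, with 0 reads in Macheng black 1 and 2. The log2 fold change was 2.62 ± 0.71 (SE; edgeR adjusted p = 0.0424) and was lost in 9 of 11 alternatives, among them each of the 6 that left out a library, where the edgeR adjusted p ranged from 0.0501 to 0.497. CRB1, named here after its values were seen, had 3 members with 89, 25 and 44 reads in Boer and 18, 20 and 7 in Macheng black. Its log2 fold change was 1.41 ± 0.40 (SE; edgeR adjusted p = 0.0603), without overlap between the breeds. ARHGAP10, also named after its values were seen, had 1199, 312 and 525 reads against 133, 345 and 118, without overlap in CPM. Its log2 fold change was 1.37 ± 0.46 (SE; edgeR adjusted p = 0.136), and DESeq2 called it (adjusted p = 0.00277).

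Listed genes of follicle function were looked up among the 455 hosts, with no share over all genes to set beside the counts. Of 27 genes of BMP, TGF-beta and follicle signalling, 3 were hosts, with 8 members and 93 reads, and 0 of 2 tested members passed in edgeR. SMAD1, a transducer of BMP signals, had the most reads of these, in a circRNA with an exon of 475 bases (chromosome 17, 12545531 to 12546100) with 15, 7 and 20 reads in Boer and 9, 15 and 2 in Macheng black. BMPR1B, a type I BMP receptor, had 3 members on an exon of 160 bases with 17 reads in all. Of these, 1 had 4 reads in each of Boer 3, Macheng black 1 and Macheng black 2. TGFBR2, the type II TGF-beta receptor, had 2 members with 4 reads in all, 1 of them with 2 reads in Macheng black 3 only. Among genes of steroid and sterol handling, NR5A2, a nuclear receptor of granulosa cells, was a host, with 2 members and 14 reads that were too few to be tested.

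HMCN1 was the host found among 24 genes of ovulation and matrix. Of its 13 members 6 were tested and 0 passed in edgeR, with 2 positive log2 fold changes and a median of -0.44. Its leading circRNA, with an exon of 188 bases (chromosome 16, 64741530 to 64743519), had 29, 0 and 6 reads in Boer and 5, 14 and 11 in Macheng black.

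KAT2B and CREBBP, both histone acetyltransferases, were the hosts among 24 chromatin enzymes, with 7 members and 609 reads. In edgeR 0 of 6 tested members passed, with a median log2 fold change of 0.16. Of 25 genes of ubiquitin ligases and SUMO, FBXW11, ITCH, SENP6 and TRIM2 had 6 members with 51 reads, and 0 of 3 tested passed. Of 27 genes known as hosts of circRNAs in other mammals, CREBBP, SLC8A1 and SMARCA5 (an ATPase that remodels chromatin) had 9 members with 849 reads. In that list 0 of 7 tested passed, 1 had an unadjusted p under 0.05, and 7 of 7 log2 fold changes were positive with a median of 0.39. SLC8A1 gave 4 of these members on 2 exons, and those that share an exon are not independent. Over all members tested, 124 of 247 log2 fold changes were positive, and the median over all circRNAs tested was 0.11.

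Markers of cell types were also looked up among the hosts, with no share over all genes to set beside the counts. NR5A2 was the host found among 7 granulosa markers, with 2 members and 14 reads. No host was among 4 theca, 8 oocyte, 6 endothelium, 7 smooth muscle and stroma, and 5 leukocyte markers, so these circRNAs do not show the cell make-up of the follicles, and the labelled tissue could not be checked from them.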

How the data were processed

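RNA of 6 follicle libraries, 3 per breed, was analysed from the tables that the authors deposited, 1 per library. They list circRNAs with position, strand, host gene identifier, exon and intron parts, and whole-number counts of back-splice (junction) and non-junction reads, not normalized, per the file headers; full and spliced lengths in bases are other deposited values. Reads were aligned with tools that included Bowtie2 (2.0.6) and TopHat2, per the submitters' processing notes. For the circRNA caller, the build and the annotation, names were not given in the sources used here, and choices there decide which back-splices and parts are listed. Starts count from 0 in the files, and 1 was added. Breeds and replicate numbers were taken from the sample titles, and each library was treated as 1 animal. If libraries of a breed did not come from separate animals, p-values measure technical spread only.

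CircRNAs were matched by position and strand, and those not listed in a library were entered as 0. Of 829 host identifiers, 29 were set aside by the rule on chromosomes and part lengths. Only the symbols were taken from a RefSeq gene table (goat assembly ARS1.2). Libraries held 23480 to 74796 back-splice reads. Breeds were compared for circRNAs that reached 2 reads in 3 or more libraries, in edgeR 4.0.16 (R 4.3.3; TMM scaling, quasi-likelihood test, Benjamini-Hochberg adjustment over all 3712 tested), and likewise the 508 sums per host gene and class. The SE of a log2 fold change was its size divided by the square root of the F statistic. DESeq2 1.42.0 was an alternative. Library values were tested with exact permutations of 3 against 3 libraries, or exact sign flips over 6 libraries, two-sided (Python 3.11.15, scipy 1.17.1).

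On simulated counts for the 3712 circRNAs, edgeR recovered 5.88% of 4-fold and 62.2% of 16-fold changes, with 0 false among 67 calls. For the 508 sums it recovered 35.8% and 89.4%, with 0 false among 122 calls. Each simulation changed 200 features and gave every feature the same dispersion. The real tables had far fewer calls and need not share a dispersion, so these rates may not hold for the tests above.

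Named circRNAs were the 10 with the highest mean CPM, the 5 lowest p values each way, the 5 longest and 5 shortest exons among those listed in all 6 libraries, the 5 hosts with the most members (including ties), host sums with an adjusted p at most 0.05, and up to 4 members of each gene list, of which some results are not reported here. Whole-exon circRNAs were named after their values were seen. The members, rules and gene lists were chosen with earlier results of these data known.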

Additional observations from a re-analysis of the deposited data

How the results depend on the processing

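The number of members that passed between breeds was 0, and became 2 with DESeq2, 2 with the size factors of DESeq2 in edgeR, 1 with no filter on low counts, and 0 to 1 when a library was left out (1 without Boer 3, Macheng black 1 or Macheng black 3). Host sums that passed were 2, and became 1 with DESeq2 (ARHGAP10, neither of the 2), 0 with at least 5 reads in 3 libraries, and 0 to 2 when a library was left out (0 without Macheng black 3). The labels give no pairing by replicate number, and deviations of libraries with the same number correlated at -0.033, -0.039 and 0.012. Those with different numbers correlated at -0.024 to 0.061. With 3 libraries per breed a weak pairing could go unseen. With the replicate block in the fit, 0 members and 1 host sum passed: CLPTM1 was kept and LOC106501751 was lost (edgeR adjusted p = 0.451).

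By breed, the difference in read share, Boer minus Macheng black, turned to 3.45 percentage points without the LOC106501751 circRNA, chosen after seeing the data (exact permutation p = 0.1), and ranged from -3.63 to 0.252 when a library was left out. The difference in median exon length turned to -1.0 bases with each distinct exon counted once and to -36.0 bases weighted by reads, and ranged from -1.17 (without Boer 2) to 3.33. The difference in listed introns was 15.99 percentage points weighted by reads (exact permutation p = 0.1). It ranged from -0.722 to 1.89 when a library was left out, and was negative without Macheng black 3 and without Boer 1 (-0.446).

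Against circRNAs with 2 or more listed exons, the exon length difference was 0.632 bases with at least 5 reads, 11.3 bases weighted by reads, and 1.03 bases with membership in at least 1 library, an alternative chosen after seeing the data. None of these 3 passed. Log2 ratios of reads turned to -0.069 with medians, against both 2 or more exons and introns only, and to -0.064 against introns only without the LOC106501751 circRNA. With against without an intron, the log2 ratio was -0.86 with at least 5 reads, 0.31 with medians and 0.25 without the LOC106501751 circRNA. Leaving out a library left 5 pairs, which cannot give a p below 0.0625, and kept every direction. The ranges were 4.53 to 5.63 bases for exon length, 0.65 to 0.73 for log2 reads, -14.6 to -13.1 percentage points for listed introns and 1.74 to 1.98 for back-splice share. Exons without against with an intron differed by 295.1 to 394.2 bases. The median member had 4 reads over the 6 libraries, and the part of depth in the breed tests was not tested.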
